A study of Mus musculus with 7 samples.

Results

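The genes of MHC class I and antigen processing were followed in Paneth cells (PCs), granule-filled cells that sit at the bottom of the crypts of the small intestine, in mice that received tumour necrosis factor (TNF). The members were 31 mouse genes given by name, and they were separated into classical heavy chains, non-classical heavy chains of the Q, T and M regions, class I-like molecules encoded elsewhere, the light chain, genes of peptide transport, trimming and loading, the immunoproteasome and a transactivator. Of the 31, 30 matched 1 of the 55414 Ensembl identifiers in the count table, 29 had at least 1 count and 27 passed the filter on low counts. H2-Bl had no match and is only named. PCs of C57BL/6J mice had been sorted 15 h after the mice received either PBS, the vehicle control (n = 3), or TNF (n = 4), with 1 mouse per library. No allele or transgene is given for either group, and age, sex and dose are not known here. Total counts ran from 15511455 to 19193721 per library, and levels are given as CPM (counts scaled to a library size of 1e+06) on scaled library sizes.

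MHC class I molecules display peptides from inside the cell to CD8+ T cells. Cytosolic proteins are cut by the proteasome, and the immunoproteasome is the form in which the catalytic subunits are exchanged for inducible ones. The TAP transporter carries the peptides into the endoplasmic reticulum, where tapasin and its partners load them onto a heavy chain that is paired with beta-2-microglobulin. Non-classical heavy chains share this fold but vary little between individuals, and several of them are read by natural killer cells or by unconventional T cells. TNF signals through NF-kB, and the interferons act through IRF factors among others, and both routes are known to act on class I promoters. In the intestine, epithelial class I molecules are seen by the lymphocytes that lie between the epithelial cells.

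Of the 30 matched members, 20 lie on mouse chromosome 17, between the start of Tapbp at 34134873 and the end of H2-M2 at 37794472 (GRCm39, GENCODE M39). H2-K1 (ENSMUSG00000061232) lies at 34214987-34219321 on the minus strand and H2-D1 (ENSMUSG00000073411) at 35481691-35486475 on the plus strand. Psmb9, Tap1, Psmb8 and Tap2 lie side by side between 34400960 and 34435829. The other 10 members lie on other chromosomes, with B2m at 121977957-121983594 of chromosome 2 and Nlrc5 at 95160984-95253900 of chromosome 8.

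Promoter sequences were read for 23 of the 31 members from RefSeq (build GRCm38.p6), as windows from 250 bases before to 50 bases after the annotated start. The following windows are shown because these genes stand for the different outcomes described below: H2-K1, H2-D1, H2-Q4 and B2m rose after TNF, whereas H2-T23 was not called. Capitals mark matches to an NF-kB consensus motif or to GAAANNGAA, a short form of the interferon-stimulated response element, on either strand.
H2-K1, chr17:34000284-34000583, minus strand: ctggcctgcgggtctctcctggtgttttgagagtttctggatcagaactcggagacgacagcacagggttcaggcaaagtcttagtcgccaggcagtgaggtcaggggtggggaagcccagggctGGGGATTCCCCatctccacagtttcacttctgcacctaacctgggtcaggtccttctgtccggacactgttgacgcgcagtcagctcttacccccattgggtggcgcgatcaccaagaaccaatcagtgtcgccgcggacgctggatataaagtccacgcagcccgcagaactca
H2-D1, chr17:35262844-35263143, plus strand: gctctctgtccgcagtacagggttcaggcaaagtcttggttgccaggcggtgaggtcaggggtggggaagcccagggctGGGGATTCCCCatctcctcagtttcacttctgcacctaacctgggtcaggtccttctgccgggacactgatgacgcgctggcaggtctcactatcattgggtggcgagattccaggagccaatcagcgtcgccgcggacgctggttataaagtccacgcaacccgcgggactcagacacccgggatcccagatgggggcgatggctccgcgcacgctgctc
H2-Q4, chr17:35379367-35379666, plus strand: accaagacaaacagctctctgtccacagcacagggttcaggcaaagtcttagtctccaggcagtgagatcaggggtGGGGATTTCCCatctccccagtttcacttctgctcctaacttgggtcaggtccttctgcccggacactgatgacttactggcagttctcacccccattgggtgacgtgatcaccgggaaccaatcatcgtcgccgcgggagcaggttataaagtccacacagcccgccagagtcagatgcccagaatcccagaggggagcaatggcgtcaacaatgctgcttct
B2m, chr2:122147437-122147736, plus strand: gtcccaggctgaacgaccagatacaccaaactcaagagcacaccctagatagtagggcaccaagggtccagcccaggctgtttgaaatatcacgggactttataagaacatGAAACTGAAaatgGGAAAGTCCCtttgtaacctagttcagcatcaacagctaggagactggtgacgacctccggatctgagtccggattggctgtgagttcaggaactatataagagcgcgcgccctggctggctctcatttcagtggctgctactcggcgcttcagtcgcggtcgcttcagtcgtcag
H2-T23, chr17:36032652-36032951, minus strand: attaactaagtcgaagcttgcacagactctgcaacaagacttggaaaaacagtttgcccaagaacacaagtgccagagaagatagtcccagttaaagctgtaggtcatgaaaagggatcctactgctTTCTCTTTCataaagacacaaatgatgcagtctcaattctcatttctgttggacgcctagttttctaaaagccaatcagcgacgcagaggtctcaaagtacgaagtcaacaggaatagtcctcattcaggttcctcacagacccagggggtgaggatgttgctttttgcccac

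The capital run in the H2-K1 and H2-D1 windows was the same, GGGGATTCCCC, and the window of H2-Q6 held it too. In H2-Q4 it read GGGGATTTCCC. B2m held both motifs, with GGAAAGTCCC for NF-kB and GAAACTGAA for GAAANNGAA, and H2-T23 held a match to GAAANNGAA alone. The windows of H2-K1, H2-D1 and H2-Q4 all hold gtttcacttctg after the NF-kB match, which GAAANNGAA does not match. Other forms of the interferon element were not searched for, so a window without GAAANNGAA is not shown to lack it. The NF-kB motif was found in 4.51% of all 32851 promoter windows and in 10 of the 25 windows of members, which belong to 9 genes. GAAANNGAA was found in 8.56% of all windows and in 5 of the 25. The motifs do not overlap each other in B2m, and the heavy chain promoters are related copies and thus not independent of one another. The NF-kB motif and the windows to be shown were chosen with the results known, and a match is a description of the letters only.

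The promoter of Tap1 is shown because the neighbouring Psmb9 starts within the same window on the other strand. In the Tap1 window below, the first 25 capitals are the beginning of the Psmb9 transcript, the last 50 capitals are the beginning of the Tap1 transcript, and the annotated starts are 226 bases apart. Neither of the motifs above was found in it.
Tap1, chr17:34187306-34187605, plus strand: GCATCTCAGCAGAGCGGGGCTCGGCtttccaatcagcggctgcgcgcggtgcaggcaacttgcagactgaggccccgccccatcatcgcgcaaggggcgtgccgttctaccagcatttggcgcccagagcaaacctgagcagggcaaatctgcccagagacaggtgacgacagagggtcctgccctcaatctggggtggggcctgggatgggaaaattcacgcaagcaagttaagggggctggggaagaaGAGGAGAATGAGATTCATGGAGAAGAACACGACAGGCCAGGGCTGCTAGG

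Across the members, 18 of the 27 tested genes were higher after TNF and 2 were lower, by edgeR's quasi-likelihood test at a Benjamini-Hochberg adjusted p under 0.05. This is 66.7% higher, where 29.5% of all 14329 tested genes were called higher and 30.1% were called lower. A call with at least a 2-fold rise was made for 15 members (55.6%) and for 14.4% of all tested genes. In 18 members every TNF library lay above every PBS library, which held for 29.9% of all tested genes, and in 3 members every TNF library lay below, which held for 30.9% of all tested genes. The median log2 fold change was 1.25 over the 27 tested members and 0.002 over all tested genes. H2-Q6, H2-Q7, H2-Q10 and H2-T10 passed the low-count filter only with the help of the TNF libraries and Cd1d1 only with that of the PBS libraries, and H2-Q6 and H2-Q7 are among the 18. Of the 22 members past the count minimum in at least 3 libraries of each group, 16 were higher (72.7%) and 2 lower (9.09%), beside 30.8% and 30.6% of the 12070 genes that met the same condition. The matched members held 0.192 to 0.217% of all counts in the PBS libraries and 0.410 to 0.446% in the TNF libraries. Because these are bulk samples, a change in the level of a gene cannot be told apart from a change in the share of the cells that carry it.

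**Figure D1:**
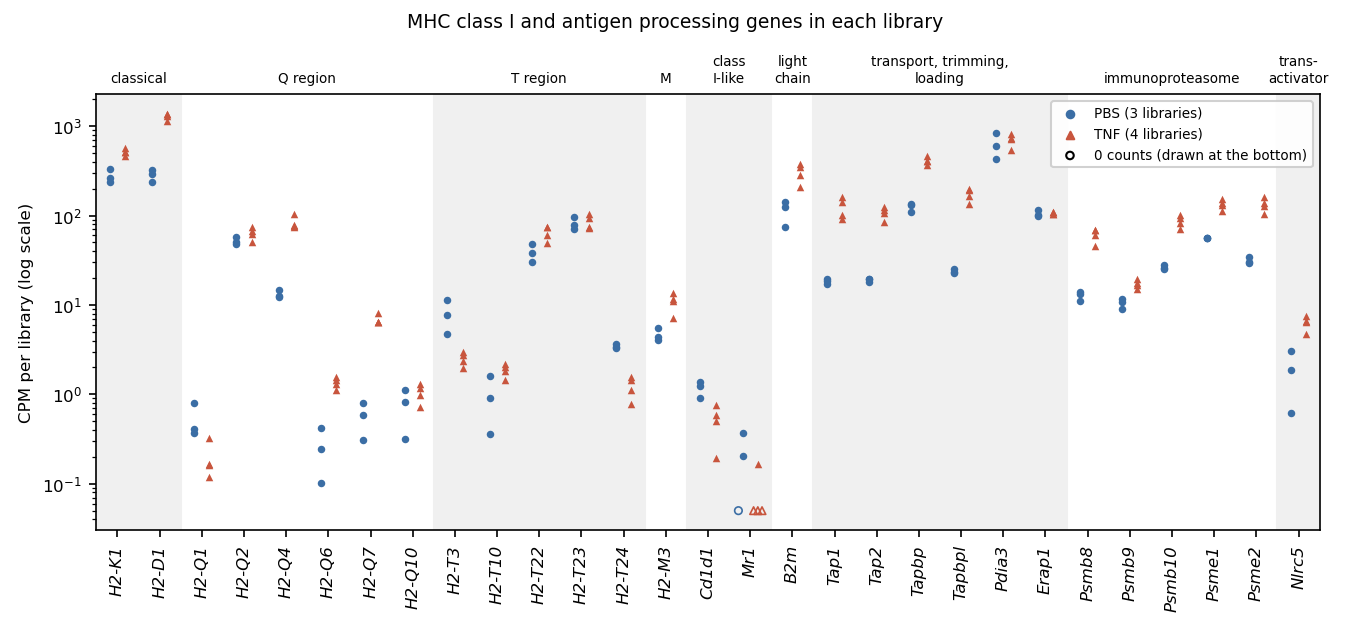
Level of the 29 members with counts in each library, in CPM on a log axis, grouped by role. Circles are the 3 PBS and triangles the 4 TNF libraries, and open symbols at the bottom are libraries with 0 counts. H2-D1 reaches 1153 to 1363 CPM after TNF and lies above all PBS libraries, whereas H2-T23, Pdia3 and Erap1 overlap between the groups.

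H2-K1 and H2-D1, the classical heavy chains that present peptide to CD8+ T cells in this strain, both rose, and H2-D1 rose more. H2-K1 measured 336, 264 and 236 CPM in the PBS libraries and 462, 577, 510 and 518 CPM in the TNF libraries. H2-D1 measured 325, 289 and 240 CPM after PBS and 1153, 1361, 1289 and 1363 CPM after TNF. For both genes the groups did not overlap. The log2 fold change was 0.89 ± 0.14 (SE) for H2-K1 (edgeR, adjusted p = 6.71e-05) and 2.18 ± 0.14 for H2-D1 (edgeR, adjusted p = 2.69e-08). The ratio of H2-D1 to H2-K1 counts, which does not depend on the scaling of the libraries, ran from 0.969 to 1.10 after PBS and from 2.36 to 2.63 after TNF. The groups did not overlap in this ratio (exact permutation test, two-sided, p = 0.0286, the smallest that 3 against 4 libraries allow). After adjustment over the 10 ratios examined the p was 0.0357, which holds for each of the 8 ratios at the smallest p. The pairs were chosen with the results known, which the adjustment does not cover. Each p of a ratio therefore only describes how the libraries separate. Which of the pair was the more abundant after PBS depended on the gene length used. Per kilobase of merged exons H2-D1 stood at 95.1 and H2-K1 at 87.5 CPM, and per kilobase of the canonical transcript H2-D1 stood at 134 and H2-K1 at 172 CPM. After TNF, H2-D1 was above H2-K1 with either length.

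The non-classical heavy chains of the Q region did not move together. H2-Q4 rose and H2-Q2 and H2-Q10 were not called, while H2-Q6 and H2-Q7 passed the filter with the help of the TNF libraries and are given by their values, with no test. H2-Q4 rose from 14.5, 12.6 and 12.3 CPM in the PBS libraries to 76.6, 103, 74.2 and 79.3 CPM in the TNF libraries. H2-Q7, which encodes the Qa-2 antigen, went from 0.804, 0.305 and 0.583 to 6.49, 6.37, 6.48 and 8.11 CPM. The groups did not overlap in either gene. The log2 fold change was 2.67 ± 0.14 for H2-Q4 (edgeR, adjusted p = 4.44e-09) and 3.61 ± 0.36 for H2-Q7. H2-Q6 was scarce, with 4, 2 and 8 counts after PBS and 26, 22, 29 and 17 counts after TNF. H2-Q2 overlapped between groups, at 57.2, 48.4 and 50.9 CPM after PBS and 51.1, 66.4, 62.1 and 74.5 CPM after TNF (log2 fold change 0.28 ± 0.13, edgeR, adjusted p = 0.0714). It was called without TNF replicate 1, the lowest of its TNF libraries (log2 fold change 0.37, adjusted p = 0.00962). The ratio of H2-Q4 to H2-Q2 counts, a pair chosen with the results known, ran from 0.241 to 0.260 after PBS. After TNF it ran from 1.06 to 1.56 (exact permutation p = 0.0286). H2-Q10, which encodes a secreted heavy chain known mainly from the liver, had 18, 16 and 6 counts after PBS and 13, 22, 22 and 15 after TNF and was not called (edgeR, adjusted p = 0.471). H2-Q1 was too low to be tested, with 6, 8 and 15 counts after PBS and 3, 2, 3 and 5 after TNF.

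In the T region, 1 of the 5 tested genes rose, 2 fell and 2 were not called, which is not set apart from the 29.5% higher and 30.1% lower of all tested genes. The fall was seen in H2-T3 and H2-T24. H2-T3 encodes the thymus leukaemia antigen, which is known from intestinal epithelium and binds CD8 alpha homodimers. It measured 4.70, 11.4 and 7.69 CPM after PBS and 1.96, 2.95, 2.36 and 2.75 CPM after TNF, with no overlap, a 3.18-fold fall (log2 fold change -1.67 ± 0.31, edgeR, adjusted p = 0.000373). H2-T24 measured 3.40, 3.61 and 3.34 CPM after PBS and 0.784, 1.12, 1.55 and 1.44 CPM after TNF, a 2.81-fold fall (log2 fold change -1.49 ± 0.38, edgeR, adjusted p = 0.00351). The summed level of 8 enterocyte markers ran from 87.7 to 173 CPM after PBS and from 53.4 to 68.1 CPM after TNF. Without PBS replicate 2 the highest PBS sum was 93.8 CPM. Of the 6 that were tested, Fabp2 was lower like H2-T3. Sis, Apoa1 and Apoa4 were called lower too, but they passed the low-count filter through the PBS libraries alone. PBS replicate 2, the library with the most H2-T3, also held most of these transcripts. It had 434 counts of Apoa1 where the other PBS libraries had 18 and 45, and 167 of Apoa4 where they had 17 and 15, and the TNF libraries together had 1 count of each. Without this library the ratio of mean CPM in PBS to TNF went from 20.2 to 11.8 for Sis and from 8.18 to 6.91 for Fabp2, and the log2 fold change of H2-T3 was -1.31 (edgeR, adjusted p = 0.00615). Slc5a1, which made up most of the TNF sum, was called higher (38.8 to 53.5 CPM on average), and Fabp1 was not called. All 6 tuft cell markers were called lower as well, and each was highest in PBS replicate 2 among the PBS libraries, with Dclk1, named after its values were seen, at 594.5, 858.2 and 523.6 CPM. The part of either cell type in the fall of H2-T3 was not tested.

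H2-T23, the Qa-1 heavy chain that is read by the inhibitory receptor CD94/NKG2A, did not differ detectably. It measured 96.2, 78.4 and 69.9 CPM after PBS and 71.9, 94.5, 74.0 and 103 CPM after TNF (log2 fold change 0.08 ± 0.15 by edgeR, adjusted p = 0.677). The sign of this change turned between settings, from -0.09 to 0.21. H2-T22, a ligand of gamma delta T cells, rose from 48.2, 30.4 and 38.2 CPM to 49.1, 73.6, 61.0 and 75.4 CPM, with a narrow gap between the highest PBS and the lowest TNF library (log2 fold change 0.74 ± 0.18, edgeR, adjusted p = 0.00284). Its near-copy H2-T10 had 26, 7 and 17 counts after PBS and 36, 31, 27 and 33 after TNF (log2 fold change 0.97 ± 0.52, edgeR, adjusted p = 0.125). H2-T10 passed the low-count filter only with the help of the TNF libraries, so no rise is read from its fits. Its call changed without PBS replicate 1, the PBS library with the most H2-T10 (log2 fold change 1.56, edgeR, adjusted p = 0.0437). The summed level of the T region ran from 120 to 154 CPM after PBS and from 126 to 185 CPM after TNF and overlapped, whereas that of the Q region ran from 62.6 to 74.2 CPM and from 137 to 179 CPM.

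H2-M3, which presents N-formylated peptides, rose from 4.39, 4.07 and 5.51 CPM to 7.22, 13.6, 11.1 and 11.8 CPM (log2 fold change 1.23 ± 0.24, edgeR, adjusted p = 0.00058). H2-M2 had 0 counts in all libraries. The class I-like molecules that are encoded outside the MHC were at the limit of detection. Cd1d1, which presents lipids to natural killer T cells, had 20, 18 and 26 counts after PBS and 9, 13, 11 and 3 counts after TNF, so that all TNF libraries lay below in CPM, but the change was not called (log2 fold change -1.17 ± 0.56, edgeR, adjusted p = 0.0881). Mr1, which presents vitamin B metabolites, had 0, 4 and 7 counts after PBS and 3, 0, 0 and 0 after TNF, a ratio of 0.217 of TNF to PBS after scaling for depth, with a 95% interval of 0.0388 to 0.821 (exact binomial) that covers counting error only.

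Within the summed heavy chain mRNA, taken per kilobase of merged exons, the makeup shifted toward H2-D1. H2-D1 made up 37.3 to 40.2% of the sum in the PBS libraries and 60.6 to 63.0% in the TNF libraries. H2-K1 went from 34.5-36.7% to 22.3-24.2%, although its own level rose. H2-T23 went from 9.47-9.78% to 3.16-4.12%, and its own level was not called as changed. With the canonical transcript lengths the H2-D1 share was lower in every library, from 29.7 to 32.4% after PBS and from 52.4 to 54.9% after TNF, and the groups again did not overlap.

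**Figure D2:**
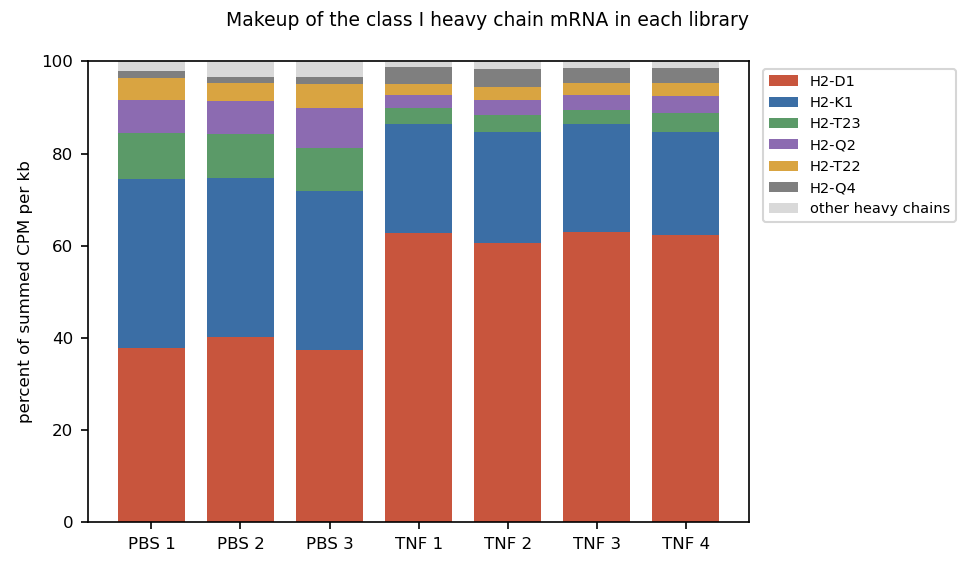
Makeup of the class I heavy chain mRNA in each of the 7 libraries, as the percent of the summed CPM per kilobase of merged exons. H2-D1 fills 37.3 to 40.2% of the bar in the PBS libraries and 60.6 to 63.0% in the TNF libraries.

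B2m, the light chain shared by the classical and most non-classical heavy chains, rose from 144, 124 and 73.8 CPM to 210, 287, 351 and 376 CPM. The PBS libraries spanned a wider range than the gap between the highest of them and the lowest TNF library, and the SE was wide (log2 fold change 1.43 ± 0.26, edgeR, adjusted p = 0.000953).

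Among the genes of peptide transport, trimming and loading, 4 of 6 rose and 2 were not called, beside 29.5% of all tested genes called higher. Tap1 and Tap2 together form the peptide transporter. Tap1 measured 19.3, 18.7 and 16.97 CPM after PBS and 92.6, 160, 102 and 142 CPM after TNF (log2 fold change 2.76 ± 0.19, edgeR, adjusted p = 9.49e-08). Tap2 measured 19.6, 19.8 and 17.98 CPM after PBS and 85.1, 114, 108 and 126 CPM after TNF (log2 fold change 2.50 ± 0.14 by edgeR, adjusted p = 5.58e-09). The PBS libraries lay close together for both genes and the TNF libraries spread more widely. The ratio of Tap1 to Tap2 counts did not shift detectably (log2 difference 0.24, exact permutation p = 0.171).

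Tapbpl and Tapbp encode the related peptide editors TAPBPR and tapasin, of which tapasin bridges the heavy chain to the transporter. Tapbpl rose from 25.3, 22.9 and 23.2 CPM to 134, 192, 164 and 196 CPM (log2 fold change 2.85 ± 0.14, edgeR, adjusted p = 2.61e-09). Tapbp rose less, from 134, 131 and 110 CPM to 369, 459, 413 and 411 CPM (log2 fold change 1.73 ± 0.12 by edgeR, adjusted p = 4.52e-08). The ratio of Tapbpl to Tapbp counts was 0.174 to 0.211 after PBS and 0.363 to 0.477 after TNF (exact permutation p = 0.0286). By contrast, Pdia3, the disulphide isomerase of the loading complex, and Erap1, the aminopeptidase that trims peptides in the endoplasmic reticulum, were not called. Pdia3 measured 840, 607 and 431 CPM after PBS and 547, 732, 723 and 819 CPM after TNF (log2 fold change 0.17 ± 0.20, edgeR, adjusted p = 0.485). Erap1 measured 117, 102 and 99.9 CPM after PBS and 109, 105, 110 and 104 CPM after TNF (log2 fold change 0.01 ± 0.10, edgeR, adjusted p = 0.941). For both genes the groups overlapped, and the sign of the change turned between settings.

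**Figure D3:**
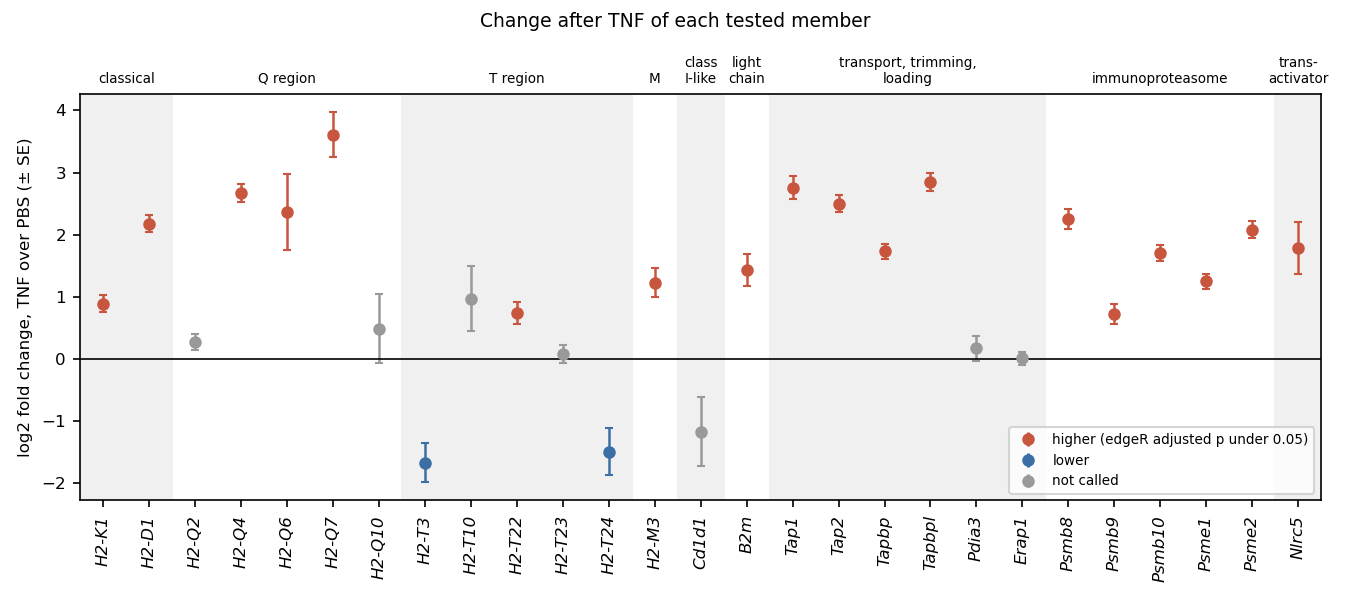
Log2 fold change of TNF over PBS for each of the 27 tested members, by role, with bars of 1 SE from edgeR. Red points were called higher, blue points lower and grey points not called. H2-Q6 and H2-Q7, both drawn in red, passed the low-count filter only with the help of the TNF libraries. H2-Q7 lies highest (3.61), H2-T3 shows the largest fall (-1.67), and Erap1 lies at 0.01.

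All 5 immunoproteasome genes rose, beside 29.5% of all tested genes, but not to the same extent. Psmb8, Psmb9 and Psmb10 encode the inducible catalytic subunits, which replace the products of Psmb5, Psmb6 and Psmb7, respectively. Psmb8 rose from 13.4, 11.1 and 14.1 CPM to 45.9, 68.6, 60.5 and 69.2 CPM (log2 fold change 2.25 ± 0.16, edgeR, adjusted p = 5.66e-08). Psmb10 rose from 28.2, 25.3 and 26.2 CPM to 70.1, 93.5, 83.1 and 100.2 CPM (log2 fold change 1.71 ± 0.13, edgeR, adjusted p = 1.14e-07). Psmb9 rose least, from 8.96, 11.7 and 10.7 CPM to 15.1, 19.8, 17.7 and 16.6 CPM (log2 fold change 0.72 ± 0.16 by edgeR, adjusted p = 0.00157). The constitutive counterparts were also called higher, with log2 fold changes of 0.81 ± 0.13 for Psmb5 (edgeR, adjusted p = 0.000127), 0.88 ± 0.12 for Psmb6 (edgeR, adjusted p = 3.25e-05) and 0.93 ± 0.14 for Psmb7 (edgeR, adjusted p = 5.39e-05).

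Set against these counterparts within each library, 2 of the 3 inducible subunits gained. The ratio of Psmb8 to Psmb5 counts ran from 0.696 to 0.793 after PBS and from 1.69 to 2.20 after TNF. That of Psmb10 to Psmb7 ran from 0.598 to 0.798 and from 1.09 to 1.23. In both ratios the groups did not overlap (exact permutation p = 0.0286). The ratio of Psmb9 to Psmb6, in contrast, overlapped, at 0.152 to 0.239 after PBS and 0.161 to 0.187 after TNF (exact permutation p = 0.457). Psmb9 also lagged behind Tap1, with which it shares the stretch of promoter shown above. The ratio of Tap1 to Psmb9 counts was 1.58 to 2.15 after PBS and 5.77 to 8.57 after TNF (exact permutation p = 0.0286). In the annotation used here, 19.6% of the exon bases of Psmb9 overlap those of Tap1 on the other strand, so reads of the pair can be mixed if strand was not used in counting.

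**Figure D4:**
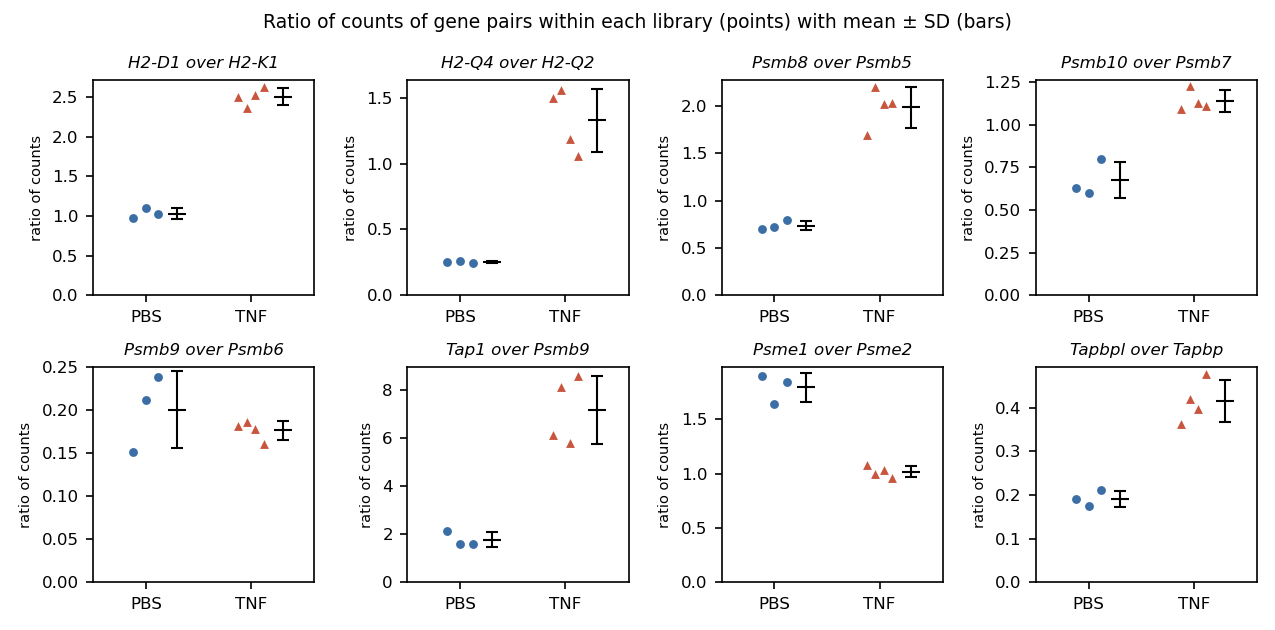
Ratio of counts of 8 gene pairs in each library, with the mean and SD of each group beside the points (3 PBS and 4 TNF libraries). The ratio of H2-D1 to H2-K1 goes from 0.969-1.10 to 2.36-2.63, that of Psme1 to Psme2 falls, and the ratio of Psmb9 to Psmb6 overlaps between the groups.

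Psme1 and Psme2 encode the alpha and beta subunits of the PA28 cap, which opens the proteasome and is also induced by interferon gamma. Psme1 rose from 55.7, 55.8 and 56.1 CPM to 112, 137, 131 and 154 CPM (log2 fold change 1.25 ± 0.12, edgeR, adjusted p = 6.69e-07). Psme2 rose from 29.2, 34.0 and 30.5 CPM to 103, 136, 127 and 160 CPM (log2 fold change 2.08 ± 0.14 by edgeR, adjusted p = 4.18e-08). The ratio of Psme1 to Psme2 counts accordingly moved from 1.64-1.90 to 0.960-1.08 (exact permutation p = 0.0286). Relative to Psme3, which encodes the nuclear PA28 gamma, Psme2 went from 0.260-0.326 to 0.673-0.969 (exact permutation p = 0.0286). The exons of Psme1 overlap Emc9 over 39.6% of their bases and those of Psme2 overlap Rnf31 over 30.8%, on the other strand in both cases.

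Nlrc5, the transactivator that is recruited to class I promoters, was low and rose from 1.85, 0.611 and 3.02 CPM to 6.38, 7.43, 4.77 and 6.61 CPM, without overlap (log2 fold change 1.78 ± 0.42, edgeR, adjusted p = 0.00225). Its PBS libraries were uneven: leaving out PBS replicate 3 gave a log2 fold change of 2.37, and leaving out PBS replicate 2 gave 1.36. Of the 24 other regulators of class I transcription that were listed, 16 were higher and 6 lower, beside 29.5% and 30.1% of all tested genes, with a median log2 fold change of 0.66. The largest rises were those of Socs1, a feedback inhibitor of cytokine signalling (3.02 ± 0.22, edgeR, adjusted p = 6.52e-08), and of Ifngr2 (2.50 ± 0.13, edgeR, adjusted p = 2.85e-09) and Ifngr1 (2.08 ± 0.11, edgeR, adjusted p = 2.61e-09), the chains of the interferon gamma receptor. Irf1, an activator of class I genes, rose from 58.2 ± 5.81 to 101 ± 2.73 CPM (mean ± SD). The NF-kB subunits Rela and Nfkb1, named after their values were seen, rose with log2 fold changes of 1.90 ± 0.12 (edgeR, adjusted p = 1.32e-08) and 1.39 ± 0.12 (edgeR, adjusted p = 3.7e-07).

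The largest falls among the regulators were those of Irf2 (-1.72 ± 0.15, edgeR, adjusted p = 4.76e-07), Creb1 (-1.09 ± 0.18, edgeR, adjusted p = 0.000164) and Rfxank (-0.79 ± 0.20, edgeR, adjusted p = 0.00343). Irf2 binds the same element as Irf1, and Creb1 and Rfxank belong to factors that bind the upstream elements of class I and class II promoters. Rfx5, which works in a complex with Rfxank and Nlrc5, was lower by 0.50 ± 0.17 on the log2 scale (edgeR, adjusted p = 0.0213). Rfx5 no longer passed the threshold without PBS replicate 3 (adjusted p = 0.0646) or TNF replicate 2 (adjusted p = 0.0517), and with the replicate block (adjusted p = 0.0889). Ciita, the transactivator of class II genes, was not called, at 5.35 ± 3.08 CPM in the PBS and 3.78 ± 0.405 CPM in the TNF libraries (edgeR, adjusted p = 0.222).

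Among the heavy, light and class I-like chains with a promoter window, 9 held the NF-kB motif and 5 did not. Of the 9, H2-K1, H2-D1, H2-Q4, H2-T22, H2-M3 and B2m were called higher after TNF, and H2-M2 had 0 counts. H2-Q6 and H2-Q7 passed the low-count filter only with the help of the TNF libraries, so their calls are not used here. Of the 5 without it, H2-T3 was lower, H2-Q2, H2-Q10 and H2-T23 were not called and Mr1 was not tested. Over all tested genes with a window, 37.8% of the 635 with the motif and 30.6% of the 9538 without it were called higher. As stated above, the motif was chosen with the results known and the heavy chain windows are related copies, so this division is a description and nothing is drawn from it. In peptide supply, none of the 9 genes with a window held the motif and 7 of them rose. GAAANNGAA was found in H2-T22, B2m and Psme1, which rose, and in H2-T23 and Erap1, which were not called.

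The genes around the pathway had smaller median changes. Of 18 other antigen processing genes, all of which were tested, 8 were higher and 4 lower, with a median log2 fold change of 0.19. Over all tested genes 29.5% were higher and 30.1% lower, and with the replicate block 5 of the 18 were higher. The largest rises were those of Calr, the calreticulin chaperone of the loading complex (0.83 ± 0.22, edgeR, adjusted p = 0.0054), Thop1, a cytosolic peptidase (0.82 ± 0.14, edgeR, adjusted p = 0.000185), and Sec61b, a translocon subunit (0.76 ± 0.23, edgeR, adjusted p = 0.0156). Without PBS replicate 2 the adjusted p of Sec61b was 0.0577. The largest falls were those of Uggt1 (-0.86 ± 0.15, edgeR, adjusted p = 0.000258) and Ganab (-0.64 ± 0.11, edgeR, adjusted p = 0.000158), enzymes of the glycan-based folding check in the endoplasmic reticulum, and of Nrdc (-0.55 ± 0.11, edgeR, adjusted p = 0.000508), a peptidase. Canx, the membrane-bound lectin chaperone of free heavy chains, was not called, at 579 ± 105 CPM in the PBS and 479 ± 72.6 CPM in the TNF libraries (edgeR, adjusted p = 0.134). It was called lower without PBS replicate 3 (log2 fold change -0.40, adjusted p = 0.0348) and with scaling by total counts (-0.43, adjusted p = 0.00166).

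Of the 6 constitutive proteasome counterparts, 5 were higher, beside 29.5% of all tested genes, with a median log2 fold change of 0.84. Pomp, the maturation factor needed to assemble both forms of the proteasome, rose most, from 37.3 ± 0.875 to 101 ± 9.96 CPM (mean ± SD). Psme4 was not called, although all of its TNF libraries lay below the PBS libraries. Of 10 other proteins with a class I fold and stress ligands, 7 passed the low-count filter. Procr did so through the TNF libraries alone and is given by its counts, and of the other 6, Ulbp1 was higher and Fcgrt and Mill2 were lower. These calls are not set apart from the shares over all tested genes (29.5% higher and 30.1% lower). The 4 genes are named because they are few, and all had a mean under 5 CPM over the 7 libraries together. Procr, the endothelial protein C receptor, had 0, 2 and 4 counts after PBS and 32, 90, 87 and 52 counts after TNF.

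**Figure D5:**
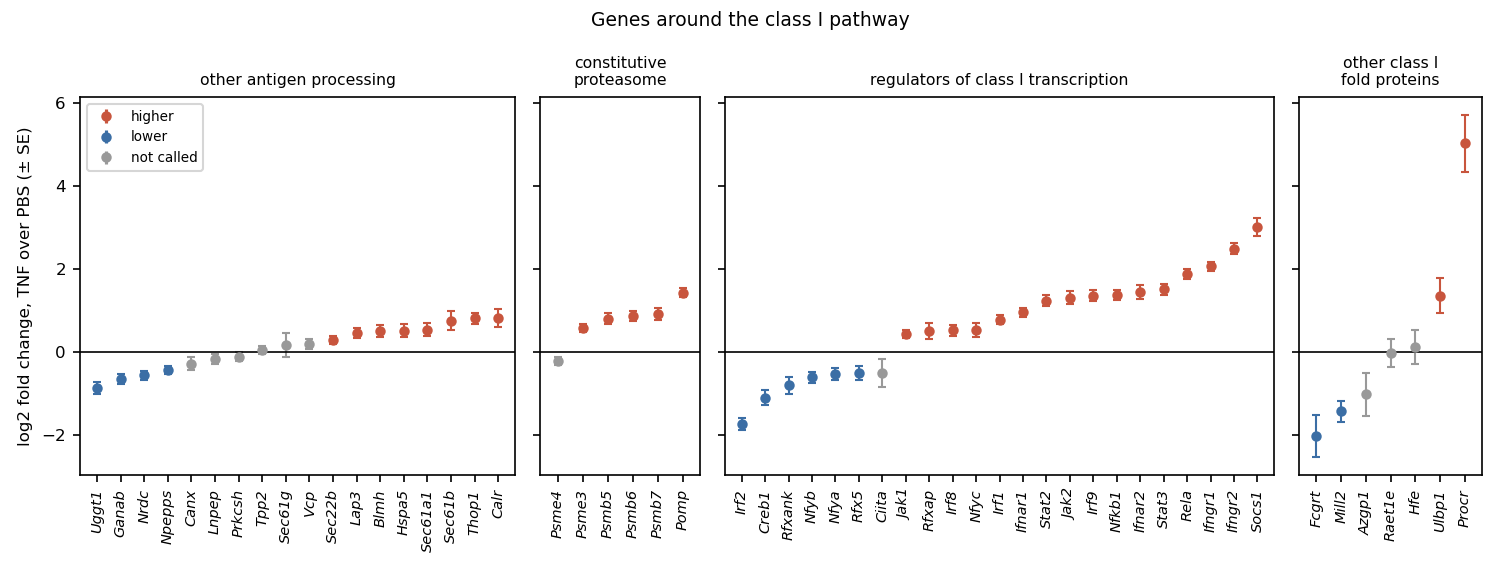
Log2 fold change of TNF over PBS (± SE, edgeR) for the tested genes of 4 lists around the class I pathway, sorted within each list, with 1 regulator left out. Red points were called higher, blue points lower and grey points not called. The regulators run from -1.72 (Irf2) to 3.02 (Socs1), and the other antigen processing genes from -0.86 (Uggt1) to 0.83 (Calr).

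The sorted cells carried the defining products of PCs. Lyz1, the PC lysozyme, reached 96500 ± 17900 CPM in the PBS and 119000 ± 28100 CPM in the TNF libraries (mean ± SD), and the 10 PC markers together held 161000 to 287000 CPM, most of it from Lyz1 and Defa24. Of the 10, Mmp7 was called higher and 5 were called lower, beside 29.5% higher and 30.1% lower of all tested genes. The 5 were Clps (4.81-fold), Kit (3.20-fold), Pnliprp2 (2.63-fold), Habp2 (2.40-fold) and Cd24a (1.38-fold). The part of these changes in the results on class I genes was not tested. Leukocytes and endothelial cells also carry class I genes, and their markers were low. Of 13 markers of T, NK and intraepithelial lymphocytes, 6 were at 0 in all libraries, Cd3e among them, and the summed level was 11.4 to 26.2 CPM after PBS and 7.13 to 13.4 CPM after TNF, nearly all of it from the pan-leukocyte gene Ptprc, which was called lower (log2 fold change -0.95, edgeR, adjusted p = 0.027). The other 12 markers were at 0 in the PBS libraries, and 6 of them had counts after TNF alone, summing to 0.131 to 0.884 CPM per library. Gzma, a granule protease of killer cells and named after its values were seen, had 3, 7, 8 and 2 counts after TNF. B cell markers summed to 0.247 to 0.477 CPM after PBS and 1.36 to 2.85 CPM after TNF, with Cd79a at 0 in all but 1 library. Cd79b, which made up most of this sum, had 4, 9 and 8 counts after PBS and 48, 20, 26 and 38 after TNF. Myeloid markers summed to 7.08 to 15.7 CPM and 21.0 to 23.5 CPM, with Itgam at 0.781 ± 0.516 and 0.850 ± 0.233 CPM (mean ± SD). The neutrophil genes S100a9, Ly6g and S100a8 of this list, named after their values were seen, had counts in every TNF library and in no PBS library. S100a9 had 0 counts in each PBS library and 103, 116, 60 and 120 counts after TNF. Ly6g had 0 counts in each PBS library and 102, 48, 66 and 17 counts after TNF, and S100a8 had 0 counts in the PBS and 32 counts in the TNF libraries together. Cd79b, S100a9 and Ly6g passed the low-count filter through the TNF libraries alone, so their values are given without a test. Endothelial and stromal markers summed to 2.39 to 2.72 CPM and 8.19 to 10 CPM, mostly from Vwf, which was called higher (edgeR, adjusted p = 9.9e-06). The sums of the last 3 lists, and of the lymphocyte markers other than Ptprc, were higher after TNF like the members that rose, but not every gene followed. Lyz2 went from 9.72 to 8.29 CPM on average and was not called, and Adgre1, Pecam1 and Col1a1, all under 0.3 CPM, had lower means after TNF. The part of these cells in the rises was not tested. Markers of erythroid cells summed to at most 0.236 CPM, and the summed levels of goblet, tuft, enteroendocrine and stem cells ran from 10400-19200 to 8770-9840, from 1440-2400 to 285-714, from 26.6-89.4 to 20.9-31.6 and from 2550-3690 to 998-1630 CPM, respectively. The goblet sum came mostly from Muc2 and Spink4, which were not called, while the other 4 goblet markers were lower: Fcgbp (49.1-fold), Zg16 (24-fold), Clca1 (7.24-fold) and Tff3 (4.40-fold). Zg16 passed the low-count filter only with the help of the PBS libraries.

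The counts of similar genes carry an uncertainty that the replicates do not show. In the transcripts of the 15 matched heavy chains, between 0 and 17.6% of 75-base windows also occur in a gene that lies elsewhere, with the highest shares in H2-Q6 (17.6%), H2-T10 (16.3%, all of it with H2-T22), H2-T22 (15.1%), H2-Q7 (14.7%) and H2-Q10 (14.0%). How the authors counted reads with several matches is not stated in the labels. Overlap at the same locus is a separate matter. Exons of 21 of the 30 matched members overlap another annotated gene, most often one on the opposite strand, and for Tapbp this covers 52.8% of its exon bases.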

How the data were processed

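PCs were sorted from the small intestine of C57BL/6J mice 15 h after PBS (3 libraries) or TNF (4 libraries), and single-end reads were made on an Element AVITI instrument. The authors deposited raw counts, whole numbers of reads per gene with 1 column per library. The submitters' processing notes name FastQC, Trimmomatic 0.39, STAR 2.7.10a and DESeq2 and the builds mm10 and mm39, without their roles. The counting program, the annotation release, the use of strand and the treatment of reads with several matches are not stated in them.

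Symbols, lengths and positions were taken by identifier from GENCODE M39 (GRCm39), in which 98.8% of 55414 identifiers were found, and promoters from RefSeq (GRCm38.p6). Coordinates therefore describe the annotation and not the counted intervals. The test was edgeR 4.0.16 in R 4.3.3 (quasi-likelihood, robust, two-sided) on the counts as deposited. It used TMM scaling, a low-count filter (filterByExpr, minimum count 10 in at least 3 libraries at the median depth, 14329 genes kept), all 7 libraries, no covariate and Benjamini-Hochberg adjustment over all tested genes. The SE of a log2 fold change was derived from its estimate and F value. CPM were computed on TMM-scaled library sizes. Levels of different heavy chains were compared per kilobase, whereas sums over gene lists, and the part of a gene in them, used plain CPM. Ratios of counts of 10 gene pairs, chosen with the results known, were compared by exact permutation over all 35 arrangements of the 7 samples. The scripts were tested on simulated data.

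The members, the 4 lists of surrounding genes and the 11 marker lists were chosen with earlier results of these data known. All members are named. From each surrounding list up to 3 called rises and 3 called falls and a mean level of 5 CPM or more were named, together with Psmb5, Psmb6, Psmb7, Calr, Canx, Irf1, Rfx5 and Ciita, and 1 further gene that is not reported here. The alternatives were 3 other scalings, 2 other filters, DESeq2 1.42.0, the replicate number as a block and leaving out each library. Canonical transcript lengths, the ratios with each library left out and an unblocked fit of replicates 1 to 3 were added after the data had been seen. Replicate numbers did not pair the libraries: deviations of same-numbered libraries correlated at -0.24, -0.03 and -0.14, and each library is a different mouse. No source gives sorting or sequencing dates, so no batch could be examined. No replicates were copies of one another. With 15511455 to 19193721 counts per library, intervals and zero counts cover counting error only, since molecules were not marked.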

Additional observations from a re-analysis of the deposited data

Results flagged for a closer look

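In the 4 TNF libraries, 38 values were examined for a library that stood apart from the others. They were the CPM of the tested members, the percent of all counts held by the members and the ratios of counts. H2-Q7 did so: TNF replicate 4 held 8.11 CPM and the next library 6.49 CPM, a gap of 0.928 of the range of the group, past the 95% limit of Dixon for 4 values. Chance alone gives about 1 such case in 20 groups. The log2 fold change of H2-Q7 stayed between 3.30 and 3.94 in all alternatives that were run.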

How the results depend on the processing

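With 18 members higher and 2 lower, the counts were the same under DESeq2's size factors, scaling by total counts, scaling that left out Lyz1 and the alpha-defensins, no filter, a filter of 1 CPM in 3 libraries and the DESeq2 test. Leaving out each library in turn gave 18 to 19 higher and 2 lower. In 25 of the 27 tested members the call held in every alternative that tested the gene. The exceptions are H2-Q2 and H2-T10 as described. Cd1d1 was tested in 14 of the 15 alternatives. Scaling by total counts shifted the median of all genes by -0.16 (log2). With the replicate block on replicates 1 to 3 there were again 18 members higher and 2 lower. Over all genes the block gave 7067 calls, against 8093 for the same libraries without it and 8543 with all libraries. Around the pathway, the block left 5 other antigen processing genes higher instead of 8 (7 in the same libraries without it). The replicate block changed no other count by over 1.5 times. Scaling by total counts called 1 constitutive proteasome counterpart lower instead of 0, and it was Psme4 (log2 fold change -0.36). The other class I fold proteins called higher numbered 1 to 2 when single libraries were left out, and Ulbp1 was lost without PBS replicate 2 (adjusted p = 0.0535) or TNF replicate 3 (adjusted p = 0.0666). The causes were not tested. The ratios of counts do not depend on scaling and held their direction with each library left out, where no test under 0.05 is possible with 6 libraries. Depth limits H2-Q1, H2-Q6, H2-Q10, H2-T10, Cd1d1 and Mr1, where a few counts decide a value.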
